A study of Mus musculus with 23 samples.

Results

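The constitutive Hsp70 machinery was followed here as 8 genes: Hspa8, the class A J-protein genes Dnaja1 and Dnaja2, the Hsp110 genes Hsph1, Hspa4 and Hspa4l, and the co-chaperone genes St13 and Bag1. They were picked by symbol from a count table of 35976 genes in 23 libraries, with earlier results of the same libraries known, and all 8 were present, had counts in every library and were among the 16121 genes that passed the filter on low counts. Constitutive is the name of the set, and whether each gene is made without stress was not tested. Matches to the core of heat shock factor elements were found for Hsph1 and Dnaja1, as given below. The RNA came from microglia, the resident macrophages of the brain, isolated from the striatum; the mice were male C57BL/6J animals, 9 weeks old per the labels. In the Abstinence group (7 libraries) mice had pressed a lever for intravenous methamphetamine at 0.05 mg/kg per infusion, in 2-hr sessions on 15 days, and then spent 21 days of enforced abstinence in the home cage. In the Maintenance group (8 libraries) mice had the same drug history and were taken when the last session ended. In the Saline group (8 libraries) mice had pressed for saline over the same 15 days and were also taken after the last session. All groups were trained to press with an intravenous catheter in place. None of these saline mice went through the 21 days, so drug history, age and home cage time cannot be told apart in Abstinence against Saline. Abstinence against Maintenance likewise joins 21 days without the drug with 21 days of age and home cage time and with the lack of a session just before collection, and these cannot be told apart. The labels do not say that each library came from its own animal, so p-values measure the spread between libraries, which may be technical.

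Hsp70 proteins bind exposed hydrophobic stretches of other proteins and release them in a cycle of ATP binding and hydrolysis. J-proteins bring the client and trigger hydrolysis, nucleotide exchange factors such as the Hsp110 proteins and Bag1 free the ADP so that the client can leave, and St13 (Hip) holds the ADP state. Hspa8 (Hsc70) is the Hsp70 that cells make without stress, and it also strips clathrin from vesicles and feeds chaperone-mediated autophagy, while Hspa1a and Hspa1b are made on heat and other stress.

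Total counts were 55 to 94.8 M (1000000 counts) per library, with a median of 75.4 M, and the lowest count of any of the 8 genes in any library was 283. Microglial markers were at a mean of 11.6 log2 CPM in Abstinence, 11.6 in Maintenance and 11.7 in Saline, with Tmem119, a gene specific to microglia in the brain, at 3780 ± 233, 3890 ± 484 and 4210 ± 667 CPM (SD, n = 7, 8 and 8), whereas the labels call the tissue neuronal. Maintenance 6 and 7 had the fewest detected genes (12459 and 12740, against 14727 to 17034 elsewhere). Maintenance 8 held choroid plexus and ependymal transcripts, with a summed level of 44600 CPM for the 10 markers, against a median of 4.41 CPM in its group. Values without these 3 libraries are given beside the results that rest on them. CPM are counts per 1000000, scaled with TMM factors, and log2 fold changes ± SE come from a single edgeR quasi-likelihood fit of all 23 libraries.

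Set per kb of transcript, so that genes can be compared, Hspa8 stood far above the other 7 genes in every group. Its level was 723 ± 110 CPM per kb in Abstinence, 1450 ± 170 in Maintenance and 779 ± 81.1 in Saline (SD, n = 7, 8 and 8). Dnaja1 came next at 54.0 ± 12.5, 70.6 ± 6.72 and 35.9 ± 3.74 CPM per kb in the same groups. Its range was apart from that of Hspa8 in each group and overlapped that of St13 in Saline only. St13, Hspa4, Dnaja2, Hsph1 and Bag1 followed, with group means between 8.92 and 38.6 CPM per kb, and most neighbours in this order overlapped over libraries. Hspa4l was lowest, at 1.16, 1.63 and 0.853 CPM per kb, below the range of the gene above it in all 3 groups. Its gap to Bag1 rests on the transcript lengths used, 9.48 kb for Hspa4l and 1.07 kb for Bag1. In CPM these 2 genes overlapped in every group. The mean of Hspa4l was then above that of Bag1 in Maintenance (15.4 against 12.2 CPM). It was below in Abstinence (11 against 13.2 CPM) and Saline (8.09 against 16.2 CPM). Which transcripts were made was not tested. The place of Hsph1 moved: it lay above Bag1 in Abstinence and Maintenance and below it in Saline, with overlapping ranges of these 2 genes each time.

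**Figure D1:**
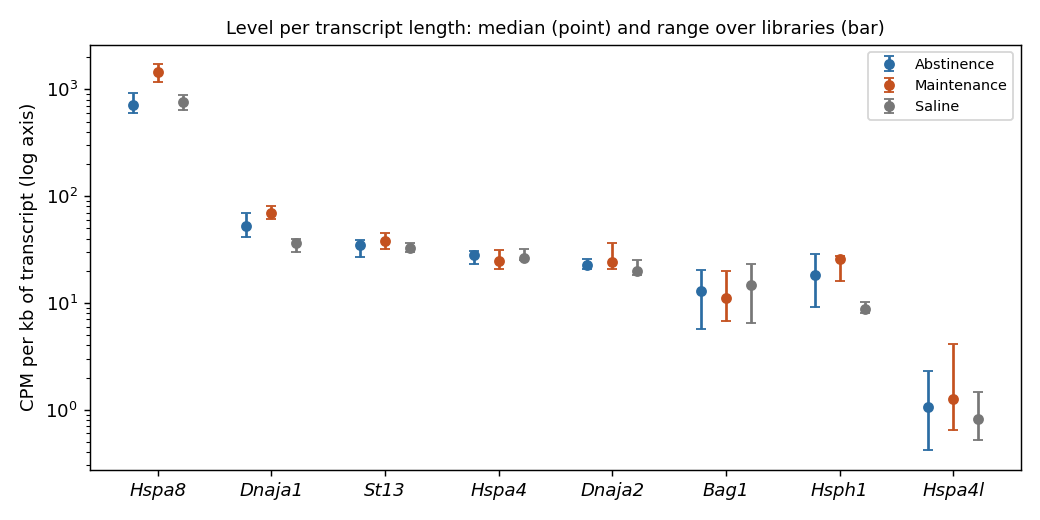
Level of the 8 genes as CPM per kb of transcript (vertical log axis) in Abstinence, Maintenance and Saline; points are medians and bars run from the lowest to the highest library. Hspa8 lay at least at 606 CPM per kb in every library, and Hspa4l, the lowest gene, had group means from 0.853 to 1.63 CPM per kb.

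Hspa8 (chromosome 9, 40801276 to 40805202, plus strand, GRCm38.p6) carried the clearest difference between the end of drug taking and abstinence. It measured 1450, 1710 and 2210 CPM (lowest, median and highest library) in Abstinence, 2810, 3450 and 4130 CPM in Maintenance and 1540, 1830 and 2100 CPM in Saline. All 8 Maintenance libraries were above all libraries of the other groups, and Abstinence and Saline overlapped over most of their ranges. Hspa8 fell to 0.499 times the Maintenance level in Abstinence (log2 fold change -1.003 ± 0.089, edgeR adjusted p = 2.51e-07), with 7 of 7 Abstinence libraries under the Maintenance median. It had the smallest p of the 16121 genes in this comparison, and a two-sided exact permutation test of the group means gave p = 0.000155, the smallest that 6435 arrangements allow. This comparison shares its Maintenance libraries with Maintenance against Saline, whose result was known when the 8 genes were chosen.

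Against Saline, the log2 fold change of Hspa8 was 0.90 ± 0.085 in Maintenance, a 1.86-fold higher level, and -0.11 ± 0.087 in Abstinence. These 2 comparisons share the Saline libraries and, for the 8 genes, are given as a description with no test. In bulk RNA, fewer cells that make a transcript and less transcript per cell cannot be told apart. Oligodendrocyte markers were at a mean of 6.95 log2 CPM in Abstinence, 6.91 in Maintenance and 6.04 in Saline, with summed levels of 5730 to 9560, 6690 to 35900 (the highest in Maintenance 8, and the listed Enpp2 is also a choroid plexus gene) and 4730 to 9950 CPM over 16 markers. Neutrophil markers were at 0.664, 1.06 and 3.22 log2 CPM in those groups, with summed levels of 258 to 440, 195 to 409 and 309 to 1220 CPM over 13 markers, and the granule genes Mpo and Elane were at 0 in every Abstinence and Maintenance library. With both marker means as covariates Hspa8 fell by 1.00 ± 0.092 in Abstinence against Maintenance (adjusted p = 1.5e-06), and without Maintenance 6, 7 and 8 by 1.05 ± 0.088 (adjusted p = 2.18e-07). The 16 genes that respond to tissue dissociation were at a mean of 9.95, 9.88 and 9.92 log2 CPM in Abstinence, Maintenance and Saline, and 0 of them passed in any of the 3 comparisons by edgeR, where 4, 4 and 3 had an unadjusted p under 0.05 in Abstinence against Maintenance, Maintenance against Saline and Abstinence against Saline, beside 11%, 11.8% and 4.39% of all genes.

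**Figure D2:**
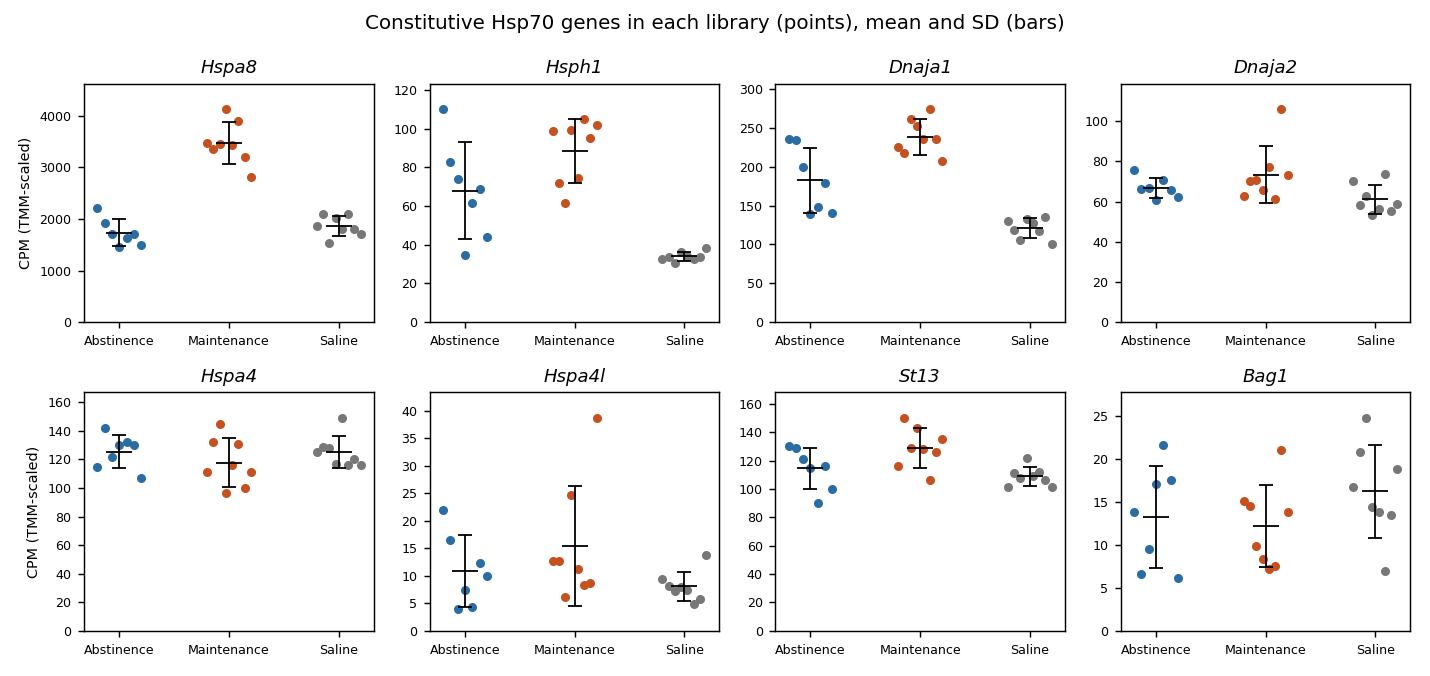
TMM-scaled CPM (vertical axes, from 0) of the 8 genes in each library of Abstinence, Maintenance and Saline; points are libraries, horizontal bars means and whiskers SD. The Maintenance libraries of Hspa8 lie between 2810 and 4130 CPM, above all others, while the Abstinence libraries of Dnaja1, at 139 to 236 CPM, lie above all of Saline and overlap Maintenance.

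The J-protein Dnaja1 (chromosome 4, 40722468 to 40734965, plus strand), a class A partner that delivers clients to Hspa8, took an intermediate place in Abstinence. It measured 139, 179 and 236 CPM (lowest, median, highest) in Abstinence, 207, 235 and 274 CPM in Maintenance and 101, 124 and 135 CPM in Saline. Every Abstinence library lay above every Saline library, and 2 of 7 Abstinence libraries, replicates 1 and 2, reached into the Maintenance range. In Abstinence against Maintenance the log2 fold change was -0.38 ± 0.11 and did not pass (edgeR adjusted p = 0.0809), with 6 of 7 libraries under the Maintenance median. Dnaja1 passed this comparison with DESeq2 (adjusted p = 0.014), with limma voom (0.0451), with a filter of 1 CPM (0.0478), and without Abstinence 1 (0.0277), Abstinence 2 (0.0438) or Maintenance 8 (0.0393). The exact permutation test used for Hspa8 gave p = 0.00699 for Dnaja1, with no adjustment over genes. Dnaja1 did not pass in the other 20 of 23 edgeR fits with 1 library left out (adjusted p up to 0.202). Nor did Dnaja1 pass with the replicate block (0.0898), with the marker covariates (0.107) or without Maintenance 6, 7 and 8 (-0.39 ± 0.12, adjusted p = 0.111). Against Saline its log2 fold change was 0.98 ± 0.10 in Maintenance and 0.59 ± 0.11 in Abstinence, again as a description.

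The second class A gene, Dnaja2 (chromosome 8, 85537633 to 85555361, minus strand), differed less between groups. It measured 60.6, 66.4 and 75.8 CPM in Abstinence, 61.4, 70.5 and 106 CPM in Maintenance and 53.3, 58.5 and 73.8 CPM in Saline, and all 3 groups overlapped. The log2 fold change in Abstinence against Maintenance was -0.14 ± 0.10 (adjusted p = 0.727), with a 95% interval from -0.338 to 0.06 before any adjustment. Against Saline it was 0.27 ± 0.098 in Maintenance and 0.13 ± 0.10 in Abstinence. The highest value, in Maintenance 7, came from 1 of the libraries with few detected genes, and without Maintenance 6, 7 and 8 the Maintenance mean was 69.5 ± 5.51 CPM (n = 5) in place of 73.5 ± 14.3 CPM (n = 8). The log2 fold change was then -0.063 ± 0.087 in Abstinence against Maintenance (adjusted p = 0.939) and 0.18 ± 0.085 in Maintenance against Saline. The log2 ratio of Dnaja1 to Dnaja2 averaged 1.42 ± 0.28 in Abstinence, 1.71 ± 0.31 in Maintenance and 0.989 ± 0.25 in Saline (SD).

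Among the Hsp110 exchange factors, Hsph1 (Hsp105; chromosome 5, 149616843 to 149636498, minus strand) was uneven over the Abstinence libraries. It measured 34.5, 68.9 and 110 CPM in Abstinence, 61.7, 96.9 and 105 CPM in Maintenance and 30.4, 33.5 and 38.3 CPM in Saline. Maintenance and Saline did not overlap, 6 of 7 Abstinence libraries were above all Saline libraries, and Abstinence 4 alone fell within the Saline range. The coefficient of variation over libraries was 36.8% in Abstinence, 18.7% in Maintenance and 7% in Saline. The log2 fold change was -0.38 ± 0.17 in Abstinence against Maintenance (adjusted p = 0.371, 6 of 7 libraries under the Maintenance median). Against Saline, as a description, it was 1.384 ± 0.16 in Maintenance and 1.002 ± 0.17 in Abstinence, which are 2.61-fold and 2-fold higher levels. Without Maintenance 6, 7 and 8 the Maintenance median of Hsph1 was 74.4 CPM. The log2 fold change was then -0.26 ± 0.19 in Abstinence against Maintenance (adjusted p = 0.727) and 1.255 ± 0.18 in Maintenance against Saline.

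The sister gene Hspa4 (Apg-2; chromosome 11, 53259814 to 53300479, minus strand) had similar ranges in the groups. It measured 107, 130 and 142 CPM in Abstinence, 96.6, 114 and 145 CPM in Maintenance and 116, 123 and 149 CPM in Saline, with all groups overlapping. Its log2 fold change was 0.09 ± 0.084 in Abstinence against Maintenance (adjusted p = 0.83; 95% interval -0.0752 to 0.255). Against Saline it was -0.09 ± 0.081 in Maintenance and 0.00 ± 0.084 in Abstinence. The log2 ratio of Hsph1 to Hspa4 therefore averaged -0.966 ± 0.56 in Abstinence, -0.423 ± 0.45 in Maintenance and -1.88 ± 0.18 in Saline, and Maintenance did not overlap Saline.

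Hspa4l (Apg-1; chromosome 3, 40744500 to 40796103, plus strand), the third Hsp110 gene, was scarce and variable. It measured 3.94, 10.0 and 21.9 CPM in Abstinence, 6.1, 11.9 and 38.7 CPM in Maintenance and 4.89, 7.69 and 13.8 CPM in Saline. The groups overlapped, and the highest value was that of Maintenance 8, the library with choroid plexus transcripts. The log2 fold change was -0.49 ± 0.37 in Abstinence against Maintenance (adjusted p = 0.747), and 0.93 ± 0.36 in Maintenance and 0.44 ± 0.37 in Abstinence against Saline. Without Maintenance 8 the 2 values with Maintenance were -0.15 ± 0.34 (adjusted p = 0.953) and 0.57 ± 0.33, and without Maintenance 6, 7 and 8 they were -0.30 ± 0.36 (adjusted p = 0.92) and 0.73 ± 0.35. Without Abstinence 1 the log2 fold change was -0.75 ± 0.38 in Abstinence against Maintenance (adjusted p = 0.469) and 0.17 ± 0.37 in Abstinence against Saline, and with the replicate block the first was -0.24 ± 0.31 (adjusted p = 0.862).

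St13 (chromosome 15, 81365044 to 81399694, minus strand) encodes Hip, which slows the loss of ADP from Hsp70. It measured 90.2, 116 and 130 CPM in Abstinence, 106, 128 and 150 CPM in Maintenance and 101, 109 and 122 CPM in Saline, and the groups overlapped. Its log2 fold change was -0.17 ± 0.081 in Abstinence against Maintenance (adjusted p = 0.421), and 0.25 ± 0.078 in Maintenance and 0.07 ± 0.081 in Abstinence against Saline. Bag1 (chromosome 4, 40936398 to 40948294, minus strand), whose BAG domain opens the nucleotide cleft of Hsp70, averaged below Saline in both drug groups. It measured 6.11, 13.9 and 21.7 CPM in Abstinence, 7.26, 11.9 and 21.1 CPM in Maintenance and 7, 15.6 and 24.8 CPM in Saline. These ranges coincide almost fully. The log2 fold change was 0.12 ± 0.29 in Abstinence against Maintenance (adjusted p = 0.958), a sign that turned with limma voom and without Abstinence 5, and -0.41 ± 0.28 in Maintenance and -0.30 ± 0.29 in Abstinence against Saline.

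**Figure D3:**
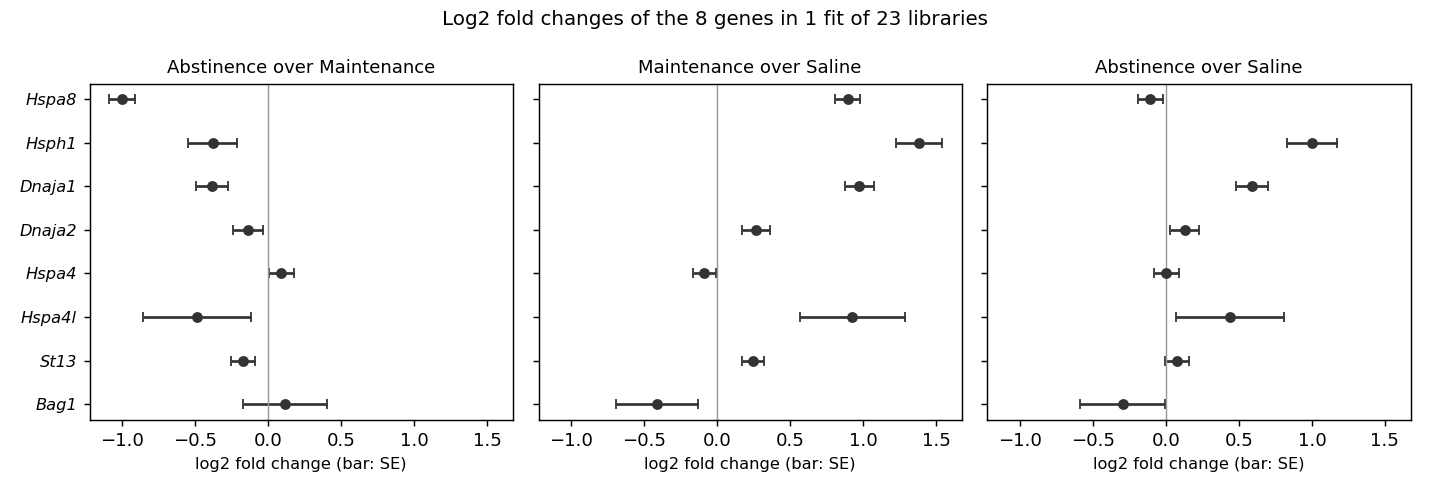
Log2 fold changes (horizontal axes) of the 8 genes in Abstinence over Maintenance, Maintenance over Saline and Abstinence over Saline; points are estimates of the edgeR fit and bars SE. Hspa8 stands at -1.003, 0.90 and -0.11, and Hsph1 at -0.38, 1.384 and 1.002.

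Counted together, 1 of the 8 genes passed in Abstinence against Maintenance, Hspa8, which fell, where 0.552% of all genes fell and 0.397% rose. The groups did not overlap for the same gene, and 0.198% of all genes lay in Abstinence below every Maintenance library. The log2 fold change was negative for 6 of the 8 genes and positive for 2, with a median of -0.277, against 0.00638 over all genes tested. In Maintenance against Saline, the comparison whose calls were known before, 3 of the 8 were past the threshold and higher (Hspa8, Hsph1 and Dnaja1), beside 0.335% of all genes (0.372% were lower), and the same 3 did not overlap, beside 0.167%. Nothing is read from these counts, since they entered the choice. The median there was 0.582, against 0.00516 over all genes. In Abstinence against Saline, also known before, 2 were past the threshold and higher (Hsph1 and Dnaja1), beside 0.0124% of all genes (0.0062% were lower), and 1 (Dnaja1) did not overlap, beside 0.0496%; the count past the threshold was between 0 and 2 with 1 library left out. The median was 0.101, against 0.00781.

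The balance between Hspa8 and its partners differed by group, as described on the log2 scale by pairs picked with these values known and therefore with no test. Hspa8 minus Dnaja1 ran from 3.04 to 3.46 in Abstinence, from 3.73 to 4.04 in Maintenance and from 3.74 to 4.17 in Saline. Abstinence overlapped neither of the other groups, which overlapped each other. Hspa8 minus Hsph1 averaged 4.75 ± 0.37 in Abstinence, 5.31 ± 0.32 in Maintenance and 5.78 ± 0.17 in Saline (SD), and Abstinence did not overlap Saline. Hspa8 minus the stress-inducible Hspa1a averaged 0.82 ± 0.67 in Abstinence, 2.28 ± 0.30 in Maintenance and 2.16 ± 0.36 in Saline, with Abstinence reaching up into the ranges of both other groups. Per kb, Hspa1a was at 368 ± 172 CPM in Abstinence, 245 ± 55.4 in Maintenance and 144 ± 36.3 in Saline.

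Hspa8, Hsph1, Dnaja1 and Dnaja2 shared their highest and their lowest library in Abstinence, and the other genes did not share both. Abstinence 1 was the highest library of its group for 6 of the 8 genes, all but Hspa4 and Bag1, and Abstinence 4 the lowest for 4, which were Hspa8, Hsph1, Dnaja1 and Dnaja2. In Maintenance no library was highest or lowest for more than 2 genes, and in Saline none was highest for more than 2, while Saline 6 was lowest for 3 (Hspa4, Hspa4l and Bag1). This order was noticed after the values were seen and was given no test. Abstinence 1 had 71.2 M counts, the fewest of its group, and the lowest Tmem119 of its group at 3380 CPM. It also had the highest choroid plexus and ependymal mean (1.88 log2 CPM, against -4.45 to -0.787 in the other 6 libraries) and the highest monocyte mean (3.82 log2 CPM). Abstinence 4 had the lowest oligodendrocyte, astrocyte and endothelial means of its group (6.2, 3.11 and 3.23 log2 CPM). The part of depth or of cell composition in this order was not tested.

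**Figure D4:**
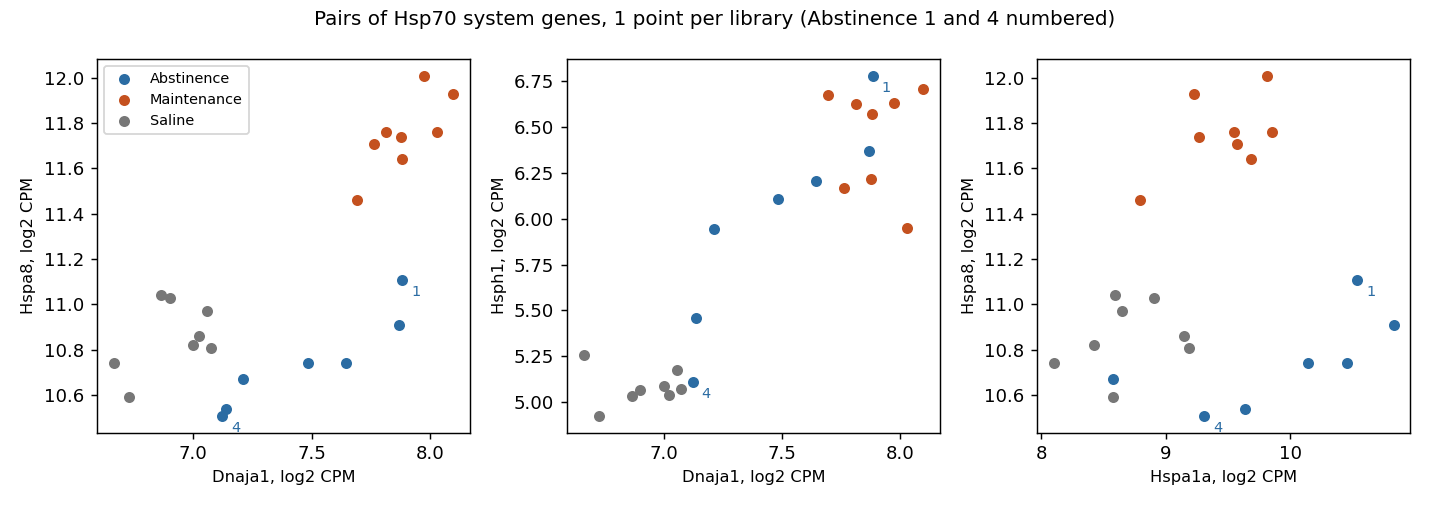
Log2 CPM of Hspa8 against Dnaja1, Hsph1 against Dnaja1 and Hspa8 against Hspa1a, with 1 point per library of Abstinence, Maintenance and Saline and Abstinence 1 and 4 numbered. In the left panel Maintenance lies above Saline on both axes without overlap. Abstinence overlaps Saline in Hspa8 and Maintenance in Dnaja1, and is set apart by the log2 ratio of Hspa8 to Dnaja1, at 3.04 to 3.46.

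The start regions of the genes were searched for GAANNTTC and TTCNNGAA, the inverted repeats at the core of the elements that heat shock factors bind. Each of these motifs reads the same on both strands, and neighbouring matches may share letters. Windows of 300 bases, from 250 before to 50 after a start listed in RefSeq (GRCm38.p6), were given for 6 of the 8 genes. Hspa8 and St13 had no entry. A listed start need not be the outer start of the gene as placed above. The Hspa4l window (chromosome 3, 40745363 to 40745662) lies wholly inside that gene, which starts at 40744500. The 150 bases shown for Hsph1 also lie inside its gene, whose outer start on the minus strand is 149636498. Either motif was in 2 of the 6, Hsph1 and Dnaja1, against 17% of 27025 genes with a window. Counted by window it was in 15.1% of 32851. The sequences below show the 150 bases before a listed start, with the motif in capitals. They are of these genes and of the relative of each with the smallest fold changes. They run 5′ to 3′ on the gene's strand, from chr5:149636337-149636486 (minus) for Hsph1, chr11:53300480-53300629 (minus) for Hspa4, chr4:40722318-40722467 (plus) for Dnaja1 and chr8:85555362-85555511 (minus) for Dnaja2.
Hsph1: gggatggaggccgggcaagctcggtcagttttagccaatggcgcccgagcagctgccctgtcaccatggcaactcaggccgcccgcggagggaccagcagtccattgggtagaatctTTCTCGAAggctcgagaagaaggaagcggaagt
Hspa4: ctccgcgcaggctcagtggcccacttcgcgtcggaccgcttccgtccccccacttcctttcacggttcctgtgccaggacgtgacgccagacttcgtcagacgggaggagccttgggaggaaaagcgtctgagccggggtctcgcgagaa
Dnaja1: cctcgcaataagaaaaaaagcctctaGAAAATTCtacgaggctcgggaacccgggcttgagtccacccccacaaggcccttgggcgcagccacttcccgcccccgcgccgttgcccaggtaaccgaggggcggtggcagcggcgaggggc
Dnaja2: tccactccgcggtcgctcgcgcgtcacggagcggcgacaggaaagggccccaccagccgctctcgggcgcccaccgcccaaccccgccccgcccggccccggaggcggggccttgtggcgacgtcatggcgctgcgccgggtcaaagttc
Hsph1 has 2 listed starts, and positions are given from the first of them. Its motif began 33 bases before this start (54 before the other), and that of Dnaja1 124 bases before it, in 1 of the 3 windows listed for Dnaja1. Hsph1 had a further 2 matches from 37 and 42 bases after the same start (16 and 21 after the other), which share 3 letters and so make 3 alternating units in a row, as 0.603% of all windows did. This stretch (chr5:149636287-149636303, minus strand) is shown with its units in capitals.
Hsph1 after the start: agaTTCTGGAAAGTTCt
No match was found in the windows of Dnaja2, Hspa4, Hspa4l and Bag1, which says only that these letters are not there. The bases before the outer start of Hspa4l were not searched. The relatives shown were picked by their fold changes in these data. Hspa4l, which is not shown, had a log2 fold change of 0.93 ± 0.36 in Maintenance against Saline. Whether motif and level go together was not tested. Hspa1a and Hspa1b, the stress-inducible genes, had 1 match each, 104 bases before the start. Dnajb1 (2 windows), Stip1 and Hspa5 had 0.

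Of 74 other genes of the Hsp70 pathway in 7 lists (other Hsp70s, exchange factors, J-proteins of classes A, B and C, TPR co-chaperones and heat shock factors), 71 were tested, and 2 passed in any comparison. In Abstinence against Maintenance 0 rose and 2 fell, where 0.552% of all genes fell. Stip1 (Hop), which passes clients from Hsp70 to Hsp90, measured 44.2, 59.9 and 75.9 CPM in Abstinence, 100, 121 and 180 CPM in Maintenance and 58.7, 63.3 and 76.0 CPM in Saline, so that Maintenance stood above both other groups without overlap. Its log2 fold change was -1.07 ± 0.12 in Abstinence against Maintenance (adjusted p = 1.72e-05) and 0.92 ± 0.12 in Maintenance against Saline (adjusted p = 6.43e-05). Without Maintenance 6, 7 and 8 these values were -0.96 ± 0.11 (adjusted p = 3.17e-05) and 0.81 ± 0.11 (adjusted p = 0.000225). Hspa5 (BiP), the Hsp70 of the endoplasmic reticulum, measured 1910, 2270 and 2570 CPM in Abstinence, 2460, 2860 and 3360 CPM in Maintenance and 1830, 2330 and 2470 CPM in Saline. It fell by 0.37 ± 0.077 on the log2 scale in Abstinence against Maintenance (adjusted p = 0.0146) and rose by 0.38 ± 0.074 in Maintenance against Saline (adjusted p = 0.0134), a call that ended in the 17 libraries of the second deposited table (0.29 ± 0.075, adjusted p = 0.0666). Without Maintenance 6, 7 and 8 the 2 log2 fold changes of Hspa5 were -0.32 ± 0.076 (adjusted p = 0.0314) and 0.32 ± 0.074 (adjusted p = 0.0444). The result of Stip1 in Maintenance against Saline was known when the lists were drawn up, and is no independent support.

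The 71 genes had a median log2 fold change of -0.0471 in Abstinence against Maintenance, 0.0507 in Maintenance against Saline and 0.00918 in Abstinence against Saline. In Maintenance against Saline 2 rose, beside 0.335% of all genes, and 0 fell. In Abstinence against Saline 0 of the 71 passed by edgeR, 8 had an unadjusted p under 0.05 (4.39% of all genes did), and 4 passed with DESeq2 and 4 with limma voom, which were Hspa1a, Hspa1b, Bag3 and Dnajb1 with each tool. Hspa1a, the main stress-inducible Hsp70, measured 381, 1130 and 1810 CPM in Abstinence, 444, 755 and 927 CPM in Maintenance and 275, 394 and 583 CPM in Saline. Unlike Hspa8 its highest group by median was Abstinence, but the groups overlapped, and its log2 fold change was 0.59 ± 0.25 in Abstinence against Maintenance (adjusted p = 0.37), 0.77 ± 0.25 in Maintenance against Saline (0.154) and 1.35 ± 0.25 in Abstinence against Saline (0.0824). Dnajb1, the class B J-protein that works with it, was at 1460 ± 574 CPM in Abstinence, 1140 ± 326 in Maintenance and 689 ± 128 in Saline (adjusted p = 0.635, 0.121 and 0.142 for the comparisons in the same order). In Maintenance against Saline both genes passed with DESeq2 (adjusted p = 0.0274 for Hspa1a and 0.0118 for Dnajb1) and with limma voom (0.0351 and 0.018), and Hspa1a also with only the groups compared (0.0384). Hspa1b, at 23.6 ± 13.9, 13.2 ± 5.51 and 7.65 ± 3.83 CPM, shares 99.2% of 2201 aligned bases with Hspa1a, so the split of reads between these 2 genes is uncertain.

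**Figure D5:**
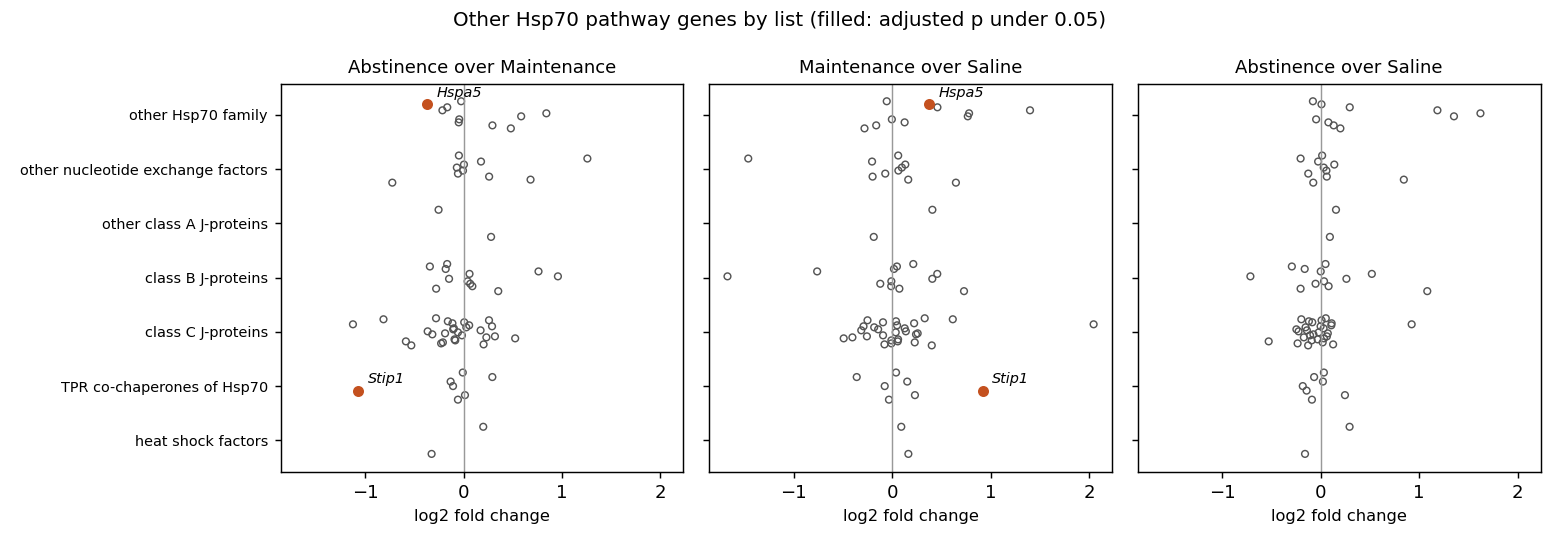
Log2 fold changes (horizontal axes) of the 71 tested genes in 7 lists of other Hsp70 pathway genes for Abstinence over Maintenance, Maintenance over Saline and Abstinence over Saline; each point is 1 gene, filled where the edgeR adjusted p is under 0.05. Stip1 and Hspa5 are the filled genes, at -1.07 and -0.37 in the left panel and 0.92 and 0.38 in the middle one.

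Genes whose level over the 23 libraries was most like the mean of the 8 genes, each set to a common scale, included several chaperones and their partners. Among 9091 other genes Pearson's r was highest for Hspd1 (0.866), the mitochondrial Hsp60, then Hsp90ab1 (0.836), Ahsa2 (0.821), Hsp90aa1 (0.818), Stip1 (0.81) and Tcp1 (0.795), a subunit of the TRiC chaperonin. With group means taken off, which leaves the spread within groups, they were Hsp90ab1 (0.682), the prolyl hydroxylase gene Egln1 (0.678), Hsp90aa1 (0.654), Stip1 (0.654), Pcid2 (0.645) and Zkscan1 (0.644). Without Maintenance 6, 7 and 8 (20 libraries) the order was Hsp90ab1 (0.865), Hspd1 (0.845), Hsp90b1 (0.824), Pak2 (0.796), Ahsa2 (0.793) and Coq10b (0.784), which includes genes of other functions. With group means also taken off it was Hsp90b1 (0.764), Stip1 (0.763), Hsp90ab1 (0.756), Pum2 (0.752), Egln1 (0.741) and Ncoa6 (0.727). The points share library and scaling, and r is given as a measure of likeness only. Within groups the 8 genes did not all move together. With group means off, r between pairs of them ran from -0.376 (Hspa8 with Bag1) to 0.754 (Hspa8 with Dnaja1). It was -0.0139 for Hspa8 with Dnaja2 and -0.0244 for Hspa8 with Hspa4. The first of these pooled values covers unlike groups. Taken group by group, r of Hspa8 with Dnaja2 was 0.835 in Abstinence, -0.485 in Maintenance and 0.117 in Saline. For Hspa8 with Hspa4 it was 0.0762, -0.0114 and -0.185 in the same groups. Hsp90ab1 averaged 1010 ± 277 CPM in Abstinence, 1460 ± 220 in Maintenance and 872 ± 99.6 in Saline. Ahsa2, an activator of Hsp90, averaged 18.8 ± 3.48, 42.6 ± 8.4 and 15.8 ± 3.15 CPM in the same groups.

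Reads of Hspa8 and Dnaja1 may be shared with other loci. Hspa8 has 6 and Dnaja1 has 3 near-identical copies in the annotation, processed pseudogenes apart from 1 long noncoding RNA, with at least 95% identity, none of which is a row of the count table. Dnaja1 also shares 608 bases of an annotated transcript with its neighbour Smu1, at 100% identity. Smu1 is a row of the count table, with 252704 counts in total against 318766 for Dnaja1. The split of reads between Dnaja1 and Smu1 was not tested. The small RNA genes Snord14c, Snord14d and Snord14e lie within Hspa8, and Gm6297 and Mir207 overlap Dnaja1, and the sources used here do not state that the counting used strand. Of these 5 overlapping genes, which do not include Smu1, 4 were tested and 0 passed in any of the 3 comparisons by edgeR, with adjusted p from 0.836 to 0.999.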

How the data were processed

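The values analysed are the authors' deposited counts, whole numbers of reads per gene symbol. STAR 2.7.10a and StringTie 2.1.5 are named in the submitters' processing notes, beside Trim Galore 0.6.7 with cutadapt 1.18, DESeq2 1.38.3 and the build mm10 (GRCm38); order, settings and strand are not given in the sources used here. A second table, named as normalized, holds 17 of the libraries, and 0 of its 611592 values differ from the first, which was used throughout. Genes were kept with filterByExpr by group (minimum count 10, minimum total 15), scaled by TMM and fitted together in edgeR 4.0.16 (estimateDisp, robust glmQLFit, glmQLFTest) with group as the only factor, with the threshold at 0.05 for p adjusted by Benjamini-Hochberg over all 16121 genes. The common biological coefficient of variation was 0.831. Log2 CPM used a prior count of 2. An SE is the log2 fold change divided by the square root of F, and 95% intervals are the estimate plus or minus the normal quantile times SE.

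The 8 genes, the gene lists, the rule for named genes and the tests were chosen with earlier results of these data known. Named were the 8 genes, up to 4 per pathway list that passed, Hspa1a, Hspa1b and Dnajb1, the microglial markers Tmem119, P2ry12 and Cx3cr1, and the 6 genes most like the 8 (mean log2 CPM of at least 2). P2ry12 averaged 9660, 9820 and 9500 CPM and Cx3cr1 5350, 4700 and 5250 CPM in Abstinence, Maintenance and Saline. Markers of monocytes averaged 2.69, 1.69 and 3.11 log2 CPM in these groups, of lymphocytes 1.35, 0.297 and 1.22 (9 of 10 in the table), of astrocytes 3.96, 3.83 and 3.6, of striatal neurons 1.29, -0.577 and 0.813, of endothelium 4.47, 4.3 and 4.39, and of choroid plexus and ependyma -1.91, -2.38 and -2.33. Transcript length was that of the longest principal protein-coding transcript in GENCODE, of the same build, and near-identical copies were found by alignment of at least 200 bases. Promoter windows are from RefSeq. The fit was checked on simulated counts with known changes. Alternatives were DESeq2 1.42.0, limma 3.58.1 (voom with quality weights), other scaling and filters, replicate blocks, fewer libraries, covariates and each library left out.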

Additional observations from a re-analysis of the deposited data

Results flagged for a closer look

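In the 24 sets of 8 genes by 3 groups, 2 libraries stood apart from the rest of their group by Dixon's test at the 95% level, and chance alone marks about 1 in 20 such sets. Dnaja2 was at 106 CPM in Maintenance 7, where the next highest Maintenance library had 77.4 CPM and the lowest 61.4 CPM; Maintenance 7 is also a library with few detected genes (12740). Hspa4 was at 149 CPM in Saline 5, where the next Saline library had 129 CPM and the lowest 116 CPM.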

How the results depend on the processing

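Hspa8 in Abstinence against Maintenance kept its direction and call in each of 37 other settings (log2 fold change -1.07 to -0.96). Bag1 reversed there, to -0.0078 with limma voom and -0.047 without Abstinence 5 (up to 0.27 without Maintenance 7), and no value of it passed. In that comparison, 2 of the 8 genes passed in place of 1 (Dnaja1 added) with the 1 CPM filter, DESeq2 and limma voom, and 1 to 2 with 1 library left out. Of all genes, 153 passed, but 242 with the 1 CPM filter, 509 with DESeq2, 340 with limma voom, 64 with only the groups compared and 238 in the 17 libraries of the second table, and 89 (without Abstinence 3) to 265 (without Maintenance 8) with 1 library left out. Of the other pathway genes 2 passed, but 4 with the 1 CPM filter, 8 with DESeq2, 4 without Maintenance 6, 7 and 8, 4 in the 17 libraries and 2 to 4 with 1 left out (4 without Maintenance 8).

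In Maintenance against Saline the count of the 8 genes was 3 to 4. Of all genes 114 passed, but 406 with DESeq2, 413 with limma voom, 57 with only the groups compared, 176 in the 17 libraries, 41 with marker covariates, and 42 (without Saline 3) to 197 (without Saline 8) with 1 left out; of the other pathway genes 2, but 5 with DESeq2 and 6 with limma voom. In Abstinence against Saline 2 of the 8 passed, but 1 with upper-quartile factors, only the groups compared or the 17 libraries, 0 with covariates, and 0 to 2 with 1 left out: 0 without Abstinence 1, 2 or 6 or Saline 1, 2, 3, 5 or 6, and 1 without Abstinence 3, Maintenance 1, 2, 3, 4, 5 or 7 or Saline 4. Of all genes 3 passed there, but 6 with the 1 CPM filter, 86 with DESeq2, 208 with limma voom, 5 with only the groups compared, 15 without Maintenance 6, 7 and 8, 56 in the 17 libraries, 0 with covariates and 1 to 15 with 1 left out (15 without Saline 8). Of the other pathway genes 0 passed, but 1 with the 1 CPM filter, with robust = FALSE or without Maintenance 6, 7 and 8, 4 with DESeq2, 4 with limma voom and 0 to 4 with 1 left out (4 without Abstinence 5). The cause of these differences was not tested, beyond the fewer genes or libraries that a setting holds.

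Replicate numbers are shared between groups, and the labels do not say that they pair the libraries. Of 22 same-numbered pairs, 4 correlated above 0.1 (median 0.00436). Pairs with different numbers were not set beside them, so whether the numbers mark a pairing or a batch was not tested. With the replicate block Hspa8 fell by 1.03 ± 0.08 in Abstinence against Maintenance (adjusted p = 1.37e-06), 69 of all genes passed in Maintenance against Saline, and in Abstinence against Saline 0 of the 8 genes and 1 of the other pathway genes, Hspa1b, did. The scarce genes Hspa4l and Bag1 had coefficients of variation of 59.9% and 45% over the Abstinence libraries, and at least 283 counts in each library of the table. Intervals and limits cover no difference between animals that the labels do not record.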
